A study of Rattus norvegicus with 18 samples.

Results

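Dazl, Ddx4 and Dmrt1 are germ cell genes that were followed through 18 RNA-seq libraries of rat epiblast and of primordial germ cells, or PGC, from which sperm and eggs later form. The members were the 3 lines of the table with these gene symbols, of 32545 lines in all, and each passed the filter on low values (at least 1 RPKM in at least 2 libraries) that left 14865 genes for testing. Values are RPKM, reads scaled to gene length and sequencing depth, so levels can be set side by side between genes. The embryos were of the Wistar strain Crlj:WI and all carried Prdm14-Venus, a fluorescent reporter of the germ line regulator Prdm14. The groups were PGC at embryonic day (E) 9.5, E10.5, E11.5 and E12.5 with unlabelled sex, PGC at E15.5 labelled female and male, and epiblast, the layer from which PGC arise, at E7.25 and E7.75. Each PGC group had 2 libraries, and each epiblast day had 3, of which 2 were labelled male and 1 female. The labels do not say whether replicates came from separate embryos or pools, so each p-value rests on the spread among libraries, and that spread may be technical.

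DAZL is an RNA-binding protein of the germ line that regulates the translation of its target mRNAs, and in mouse it is needed for PGC to turn into gametogenic cells. DDX4, the Vasa homologue, is an ATP-dependent RNA helicase of the DEAD-box family that gathers in germ granules and takes part in the piRNA pathway, which silences transposons. DMRT1 is a transcription factor with a DM domain, which binds DNA. In mouse it acts in germ cells of both sexes and in Sertoli cells, the supporting cells of the testis. In mouse the genes Dazl and Ddx4 have CpG-rich promoters whose DNA methylation is lost in PGC.

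The promoters are shown because all 3 genes were higher in PGC, and because their CpG content can be read from the letters. They are taken from RefSeq, build GRCr8, where all 3 genes were matched by symbol. Each window of 250 bases ends just before the annotated start, and capitals mark CpG.
Dazl: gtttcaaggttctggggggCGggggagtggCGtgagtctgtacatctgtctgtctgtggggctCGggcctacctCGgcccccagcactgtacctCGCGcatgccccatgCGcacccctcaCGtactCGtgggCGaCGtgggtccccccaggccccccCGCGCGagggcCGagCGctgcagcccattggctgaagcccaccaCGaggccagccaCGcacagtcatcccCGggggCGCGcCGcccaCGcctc
Ddx4: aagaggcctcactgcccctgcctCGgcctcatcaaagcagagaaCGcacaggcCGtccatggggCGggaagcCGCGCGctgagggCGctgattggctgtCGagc
Dmrt1: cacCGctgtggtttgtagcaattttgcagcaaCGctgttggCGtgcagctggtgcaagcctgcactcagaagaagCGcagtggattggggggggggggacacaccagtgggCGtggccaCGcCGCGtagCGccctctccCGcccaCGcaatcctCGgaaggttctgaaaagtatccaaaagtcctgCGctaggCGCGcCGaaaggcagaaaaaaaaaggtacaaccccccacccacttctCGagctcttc
The Dazl stretch is chr9:18193113-18193362 on the plus strand, that of Ddx4 chr2:46016098-46016201 on the minus strand and that of Dmrt1 chr1:232568929-232569178 on the plus strand. For Ddx4 only the 104 bases farthest from the start are printed, since the other 146 lie inside longer annotated transcripts. The 250 bases held 23 CpG at Dazl, 30 at Ddx4 and 17 at Dmrt1, against a median of 5 over 33469 promoters searched the same way. Fewer CpG than at Dazl were found in 87.7% of these promoters, fewer than at Ddx4 in 94.7% and fewer than at Dmrt1 in 78.1%. A search on both strands for GCGGGA, a letter string bound by E2F6, found a match 187 bases before the start of Ddx4 and another 114 bases before that of Dmrt1, but none at Dazl. This string was in 16.0% of all promoters. The E-box CACGTG, found in 5.59% of promoters, matched at Ddx4 only, 80 bases before the start and outside the stretch printed. The DM-domain core ACATTGT, found in 2.72%, was in none of the 3 windows. These matches describe letters and not binding.

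The libraries differed in depth and in other cell types. The steps of low values placed the depth of 14 libraries at 82.6% to 120.9% of the female E7.75 one, and that of the 4 from E10.5 and E11.5 at 20.7% to 22.9%, where low values are least precise. Read numbers are unknown, so no counting interval can be given. Fau, which nearly every cell uses, was listed at 0 in all 18 libraries. Gapdh, also used by nearly every cell, had only 0.0632 to 2.08 RPKM. So a 0 or a low value is given here only as listed. The PGC label was checked against 9 marker genes (among them Prdm1, Tfap2c, Nanos3 and Kit). In PGC against epiblast 7 were higher and 2, Sall4 and Pou5f1, lower, where 58.5% of all tested genes passed. Pou5f1 is also in the epiblast list. Of the epiblast markers Dnmt3b, Pou5f1 and Utf1 were all higher in epiblast than in PGC, while Fgf5 was listed at 0 in every library. The E9.5 libraries stood apart. Their 5 endothelium and blood markers summed to 109 and 28.1 RPKM in replicates 1 and 2, against at most 4.66 RPKM in any other library. Their 7 allantois and extraembryonic mesoderm markers summed to 521 and 499.9 RPKM, against 4.05 to 17.5 RPKM in epiblast and 32.8 to 237 RPKM in later PGC. The part of these cells in the values at E9.5 was not tested. In bulk samples fewer cells of a type and less RNA per cell cannot be told apart.

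Dazl was at or near 0 in epiblast and at E9.5 and then climbed at every sampled age. In E7.25 epiblast it had 1.68 and 1.27 RPKM in the male libraries and was listed at 0 in the female one. In E7.75 epiblast it was listed at 0 in both male libraries and had 0.8505 RPKM in the female one. Its E9.5 values of 0.310 and 0.0451 RPKM lay within the epiblast range. Dazl then had 7.31 and 12.6 RPKM at E10.5, 87.2 and 109.9 RPKM at E11.5, and 394 and 369 RPKM at E12.5. At E15.5 it had 938 and 939 RPKM in female PGC and 1069 and 1016 RPKM in male PGC. From E10.5 on no group overlapped the one before it. At E15.5 Dazl ranked between place 30 and place 48 from the top of all 32545 lines in each of the 4 libraries, and at E12.5 it held places 223 and 251.

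Ddx4 differed from Dazl in having a clear level in epiblast. It had 10.9, 26.8 and 29.7 RPKM in the E7.25 libraries and 3.98, 4.99 and 8.71 RPKM in those of E7.75, and each of these values was higher than either E9.5 value. At E9.5 the replicates parted, with 2.46 RPKM in replicate 1 and 0.0419 RPKM in replicate 2. Ddx4 had 9.18 and 7.68 RPKM at E10.5, 23.0 and 35.7 RPKM at E11.5, and 139 and 126 RPKM at E12.5. At E15.5 it had 342 and 319 RPKM in female PGC and 352 and 387 RPKM in male PGC. The order of the group means was E9.5, E7.75 epiblast, E10.5, E7.25 epiblast, E11.5, E12.5, E15.5 female and E15.5 male. In that order the values of E10.5 overlapped those of E7.75 epiblast, and those of E11.5 overlapped those of E7.25 epiblast.

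From E10.5 on Dmrt1 was the lowest of the 3 genes in every library, and before E11.5 it had no clear level. In epiblast it was listed at 0 in 4 of 6 libraries, with 0.848 RPKM in E7.25 male replicate 1 and 0.151 RPKM in the E7.75 female library. At E9.5 it had 0.0317 RPKM in replicate 1 and 3.19 RPKM in replicate 2, the opposite order to that of Ddx4. At E10.5 it had 0.962 RPKM in replicate 1 and was listed at 0 in replicate 2. None of these 4 groups was separated from its neighbour in the order of means, which ran from E7.75 epiblast through E7.25 epiblast and E10.5 to E9.5. Dmrt1 then had 5.38 and 4.74 RPKM at E11.5, and 9.58 and 11.96 RPKM at E12.5. At E15.5 it had 65.0 and 58.0 RPKM in female PGC and 101 and 66.9 RPKM in male PGC. From E11.5 on each group was above the one before it with no overlap.

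**Figure D1:**
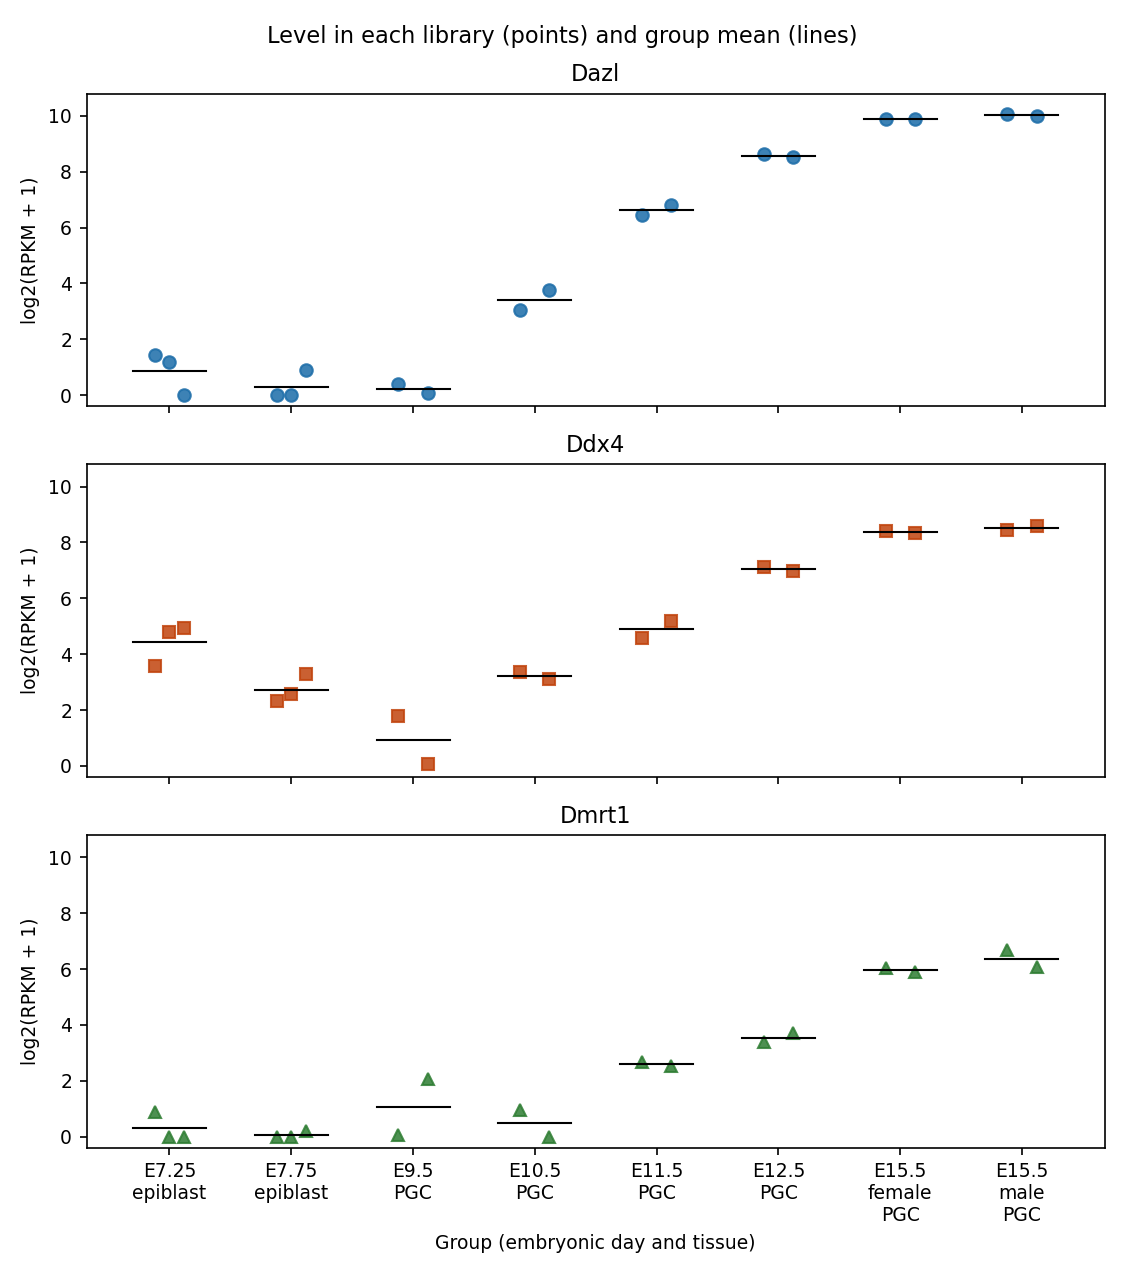
Level of Dazl, Ddx4 and Dmrt1 on the scale log2(RPKM + 1) in each of the 18 libraries (points, by embryonic day), with the mean of the log2 values of each group (lines). All 3 genes are highest at E15.5, only Ddx4 has a clear level in epiblast, and the E9.5 replicates lie far apart for Ddx4 and Dmrt1.

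Over all ages each of the 3 genes was higher in PGC than in epiblast, a comparison in which 58.5% of tested genes passed in either direction. Dazl had 0.0451 to 1069 RPKM in the 12 PGC libraries, and at most 1.68 RPKM in the 6 of epiblast, 3 of them listed at 0. Its difference in log2(RPKM + 1) was 5.87 ± 0.20 (SE; limma, Benjamini-Hochberg adjusted p = 2.56e-11), which was the rise at place 5 among all 14865 tested genes. Dmrt1 had up to 101 RPKM in PGC and at most 0.848 RPKM in epiblast, a difference of 3.16 ± 0.27 (limma adjusted p = 2.54e-07). Ddx4 averaged 145 ± 159 RPKM in PGC and 14.2 ± 11.2 RPKM in epiblast (SD, n = 12 and 6), a difference of 1.92 ± 0.25 (limma adjusted p = 1.65e-05). The call of Ddx4 rested on E15.5 and on the spread within groups. It ended with PGC of E9.5 to E12.5 alone (0.44, limma adjusted p = 0.192) and with PGC and epiblast fitted as 2 groups (1.92, limma adjusted p = 0.180).

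Between the epiblast days 0 of the 3 genes passed limma at an adjusted p under 0.05, where 0.269% of tested genes did. At an unadjusted p under 0.05 the count was 1, Ddx4, against 1300 of 14865 tested genes. Ddx4 averaged 5.89 ± 2.49 RPKM in the E7.75 libraries and 22.5 ± 10.11 RPKM in those of E7.25 (SD, n = 3 each), with no overlap between the days. Its difference of -1.71 ± 0.41 did not pass (limma adjusted p = 0.149), but passed without E7.25 male replicate 1, the lowest library of that day (-2.14, limma adjusted p = 0.0420). Dazl (-0.57 ± 0.33) and Dmrt1 (-0.23 ± 0.45) had values near 0 on both days, which overlapped.

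From E7.75 epiblast to E9.5 PGC 1 of the 3 genes changed, against 27.6% of tested genes. Ddx4 fell, averaging 1.25 ± 1.71 RPKM at E9.5 (SD, n = 2) and 5.89 ± 2.49 RPKM in E7.75 epiblast, which is 4.71-fold lower by the means. The difference was -1.80 ± 0.46 (limma adjusted p = 0.00991). The call rested on E9.5 replicate 2, the library at 0.0419 RPKM, without which it was -0.93 (limma adjusted p = 0.175), and it also ended with only the compared groups in the fit (limma adjusted p = 0.155). Dazl stayed within the epiblast range (-0.07 ± 0.37, limma adjusted p = 0.945). The difference of Dmrt1, 0.99 ± 0.50 (limma adjusted p = 0.165), came from E9.5 replicate 2 alone. Without replicate 1 it was 2.0 and passed (limma adjusted p = 0.00705), and without replicate 2 it was -0.02. In replicates 1 and 2 the endothelium and blood markers summed to 109 and 28.1 RPKM, and their part in these differences was not tested.

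Dazl and Ddx4 rose between E9.5 and E10.5, so 2 of the 3 genes passed where 29.9% of tested genes did. Dazl averaged 9.93 ± 3.71 RPKM at E10.5 and 0.177 RPKM at E9.5 (n = 2 each), a difference of 3.18 ± 0.41 (limma adjusted p = 7.5e-05). The ratio of these means, 56.0, rests on values near 0 at E9.5. Ddx4 averaged 8.43 ± 1.06 RPKM at E10.5 and 1.25 ± 1.71 RPKM at E9.5, which is 6.73-fold higher (2.31 ± 0.51, limma adjusted p = 0.00366). Both rises were called in each of the 18 fits that left out 1 library, though that of Ddx4 was 1.44 without E9.5 replicate 2. Both calls ended with only the 2 compared groups in the fit (limma adjusted p = 0.0872 for Dazl and 0.232 for Ddx4), where 0 genes passed and 3544 had an unadjusted p under 0.05. Dmrt1 did not pass (-0.57 ± 0.55, limma adjusted p = 0.480), but without E9.5 replicate 1 it was -1.58 and passed as lower at E10.5 (limma adjusted p = 0.0299), and without replicate 2 it was 0.44. The 7 allantois markers, whose sum was high at E9.5, summed to 237 and 232 RPKM at E10.5, and the endothelium markers to 0.926 and 1.19 RPKM. Most of the allantois sum at E10.5 was Bmp4, with a mean of 199 RPKM there and 151 RPKM at E9.5. Of the 7 markers 5 fell and 0 rose at this step. The part of these cell types in the rises of Dazl and Ddx4 was not tested. The median difference of all tested genes at this step was -0.16, or -0.29 with libraries rescaled without the most abundant genes and 0.03 with quantile normalization.

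From E10.5 to E11.5 Dazl and Dmrt1 rose, 2 of 3 genes against 7.19% of tested genes. Dazl averaged 98.5 ± 16.1 RPKM at E11.5 and 9.93 ± 3.71 RPKM at E10.5 (SD, n = 2 each), which is 9.92-fold higher (3.22 ± 0.41, limma adjusted p = 0.000679). Dmrt1 averaged 5.06 ± 0.456 RPKM at E11.5, against 0.962 RPKM and a listed 0 in the E10.5 libraries (2.11 ± 0.55, limma adjusted p = 0.0337). The call of Dmrt1 ended without E10.5 replicate 2, the library at 0 (1.62, limma adjusted p = 0.136), and without E11.5 replicate 1 or 2 (2.03 and 2.19, limma adjusted p = 0.138 and 0.121). Ddx4 averaged 29.4 ± 8.95 RPKM at E11.5 and 8.43 ± 1.06 RPKM at E10.5, with no overlap, and did not pass (1.66 ± 0.51, limma adjusted p = 0.0649). It passed without either of the E9.5 libraries (limma adjusted p = 0.0248 and 0.0246 without replicates 1 and 2) and without E7.25 male replicate 1 (limma adjusted p = 0.0404). These libraries are not part of the step, but enter the shared estimate of the spread. The calls of Dazl and Dmrt1 ended with only the compared groups in the fit (limma adjusted p = 0.137 and 0.229) and with a pseudocount of 0.1 (limma adjusted p = 0.113 for both), and that of Dmrt1 without a filter on low values (limma adjusted p = 0.0588).

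From E11.5 to E12.5 Dazl and Ddx4 rose, 2 of 3 genes against 7.21% of tested genes. Dazl averaged 381 ± 17.6 RPKM at E12.5 and 98.5 ± 16.1 RPKM at E11.5 (SD, n = 2 each), which is 3.87-fold higher (1.95 ± 0.41, limma adjusted p = 0.0115). Ddx4 averaged 132 ± 8.76 RPKM at E12.5 and 29.4 ± 8.95 RPKM at E11.5, which is 4.51-fold higher (2.17 ± 0.51, limma adjusted p = 0.0204). Dmrt1 averaged 10.77 ± 1.68 RPKM at E12.5 and 5.06 ± 0.456 RPKM at E11.5, with no overlap, and did not pass (0.95 ± 0.55, limma adjusted p = 0.356). The Dazl call ended without E11.5 replicate 1 (1.79, limma adjusted p = 0.0962) and without E12.5 replicate 1 or 2 (1.903 and 1.998, limma adjusted p = 0.0778 and 0.0792). The Ddx4 call ended without E11.5 replicate 1 or 2 (1.86 and 2.47, limma adjusted p = 0.1502 and 0.0525) and without E12.5 replicate 1 or 2 (2.1 and 2.23, limma adjusted p = 0.117 and 0.108). Both calls ended with only the compared groups in the fit (limma adjusted p = 0.0592 for Dazl and 0.0722 for Ddx4) and with a pseudocount of 0.1 (limma adjusted p = 0.411 and 0.183).

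From E12.5 to E15.5 Dazl and Dmrt1 rose in both sexes, 2 of 3 genes against 18.4% of tested genes in female PGC and 8.73% in male PGC. Dmrt1 averaged 61.5 ± 4.95 RPKM in E15.5 female PGC and 10.77 ± 1.68 RPKM at E12.5 (SD, n = 2 each), which is 5.71-fold higher (2.41 ± 0.55, limma adjusted p = 0.00719). In E15.5 male PGC it averaged 84.0 ± 24.1 RPKM, which is 7.80-fold above E12.5 (2.83 ± 0.55, limma adjusted p = 0.00535). The Dmrt1 call in female PGC ended without E12.5 replicate 1 (2.27, limma adjusted p = 0.0572). That in male PGC ended without E12.5 replicate 1 (2.68, limma adjusted p = 0.0519) and without E15.5 male replicate 1, the highest library (2.54, limma adjusted p = 0.0597). With a pseudocount of 0.1 both Dmrt1 calls ended (limma adjusted p = 0.278 in female and 0.286 in male PGC), and with only the compared groups in the fit that in male PGC did (limma adjusted p = 0.0534).

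Dazl averaged 939 ± 1.11 RPKM in E15.5 female PGC and 381 ± 17.6 RPKM at E12.5, which is 2.46-fold higher (1.30 ± 0.41, limma adjusted p = 0.0407). In E15.5 male PGC it averaged 1042 ± 37.3 RPKM, which is 2.73-fold above E12.5 (1.45 ± 0.41, limma adjusted p = 0.0418). Both calls lay close to the threshold, and each ended in 8 of the 18 fits that left out 1 library. These were the fits without either library of E11.5, E12.5, E15.5 female or E15.5 male PGC, with log2 differences of 1.25 to 1.35 in female and 1.40 to 1.496 in male PGC (limma adjusted p up to 0.170 and 0.194). Both also ended with a pseudocount of 0.1 (limma adjusted p = 0.528 in female and 0.575 in male PGC), without a filter on low values (0.0676 and 0.0677), without a variance trend (0.0548 and 0.0582) and with a replicate block (0.0513 and 0.0542). Ddx4 averaged 331 ± 16.1 RPKM in E15.5 female PGC and 132 ± 8.76 RPKM at E12.5, which did not pass (1.31 ± 0.51, limma adjusted p = 0.0906). In E15.5 male PGC it averaged 369 ± 25.3 RPKM, which did not pass either (1.47 ± 0.51, limma adjusted p = 0.0975). In both sexes Ddx4 passed without E9.5 replicate 1 or 2 (limma adjusted p = 0.0361 and 0.0359 in female, 0.0364 and 0.0361 in male PGC). The Ddx4 replicates at E12.5 and E15.5 lay within 0.14 of each other on the log2 scale, against 1.73 between those of E9.5, which share the estimate of the spread. The rises of the 2 sexes share the E12.5 libraries.

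At E15.5 the sexes were compared directly. Of the 3 genes 0 passed limma at an adjusted p under 0.05, where 9.68% of tested genes did. At an unadjusted p under 0.05 the count was also 0, against 3414 of 14865 tested genes. Dazl averaged 939 ± 1.11 RPKM in female and 1042 ± 37.3 RPKM in male PGC (SD, n = 2 each), a difference of -0.15 ± 0.41 with a 95% interval of -1.03 to 0.73 (limma adjusted p = 0.907). Ddx4 differed by -0.16 ± 0.51, with an interval of -1.25 to 0.93 (limma adjusted p = 0.928). Dmrt1 averaged 61.5 ± 4.95 RPKM in female and 84.0 ± 24.1 RPKM in male PGC, a difference of -0.42 ± 0.55 with an interval of -1.59 to 0.76 (limma adjusted p = 0.744). For all 3 genes each male value was above each female one. The Dazl replicates lay within 0.0730 of each other on the log2 scale in male and 0.00241 in female PGC. The intervals rest on the spread pooled over all groups. The 3 intervals include 0 and reach past -1. So a difference between the sexes was not detectable at the pooled spread and is not shown to be absent. Stra8, which starts meiosis in the fetal ovary, had 71.9 and 80.4 RPKM in the female libraries and was listed at 0 in both male ones. Nanos2, which is expressed in male fetal germ cells, had a listed 0 and 3.28 RPKM in female and 9.67 and 18.5 RPKM in male PGC.

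**Figure D2:**
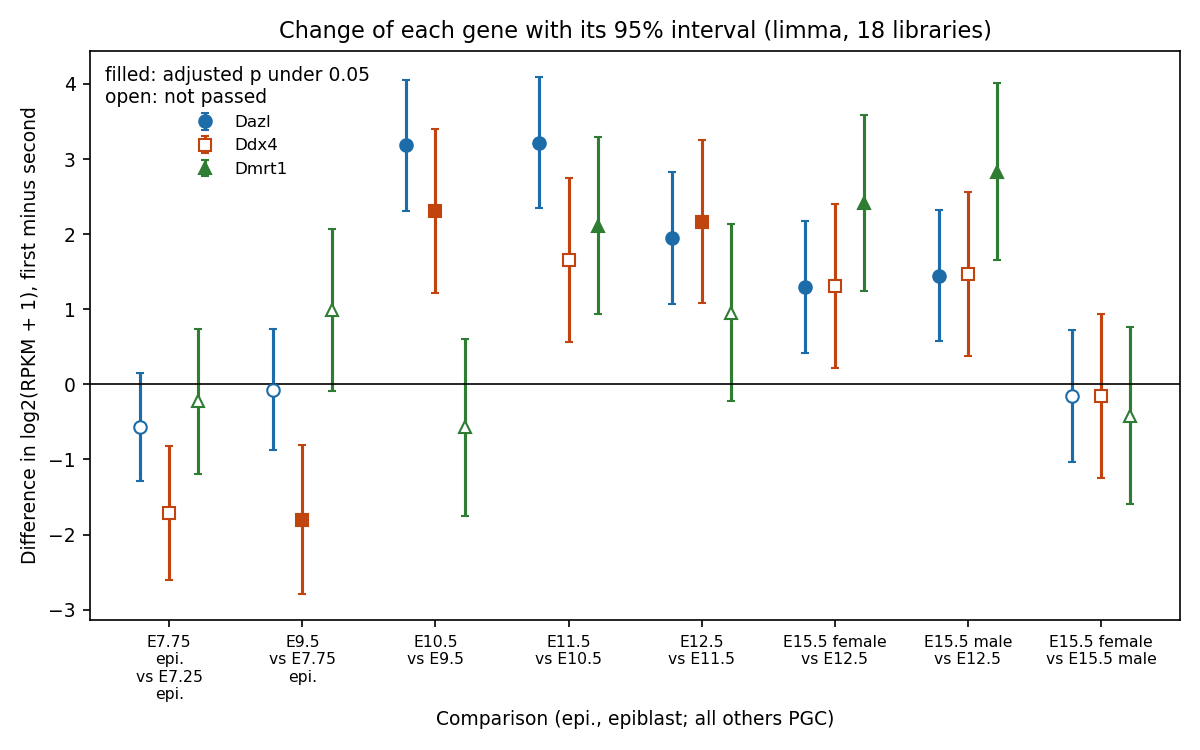
Difference in log2(RPKM + 1) of each gene in 8 comparisons, first group minus second, with the 95% interval of limma before adjustment for the number of genes (bars); filled symbols passed at an adjusted p under 0.05. Dazl is filled at every PGC step from E10.5 on, and no symbol is filled between the sexes at E15.5.

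Since Dmrt1 is also a gene of Sertoli cells in mouse, markers of gonadal cells were set beside it. The 11 Sertoli cell markers summed to 7.04 and 6.82 RPKM in E15.5 female PGC and 12.04 and 10.3 RPKM in E15.5 male PGC. Their sums were 4.59 and 4.79 RPKM at E12.5, 43.8 and 60.8 RPKM at E9.5 and 9.89 to 22.99 RPKM in epiblast. So the E15.5 sums were not above those of epiblast. Sox9, the factor that drives Sertoli cell fate, had 0.487 and 1.82 RPKM in female and 1.79 and 3.41 RPKM in male PGC. Amh, a Sertoli cell hormone gene, was listed at 0 in both female libraries and had 3.20 and 1.02 RPKM in the male ones. The part of supporting cells in the Dmrt1 values was not tested. The 9 granulosa precursor markers summed to 24.7 and 27.6 RPKM in E15.5 female and 20.2 and 16.3 RPKM in E15.5 male PGC. In epiblast they summed to 2.75 to 45.9 RPKM, and at E9.5 to 41.7 and 71.3 RPKM. Their defining gene Foxl2 was listed at 0 in every library. The 6 mesonephros and coelomic epithelium markers summed to 16.7 and 31.1 RPKM in female and 22.5 and 25.5 RPKM in male PGC, nearly all of it Lhx9.

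The level of each gene was set against its own level at E15.5, the last age sampled. Taking the mean of the 4 E15.5 libraries as 100%, Dazl reached 1.0% at E10.5, 9.95% at E11.5 and 38.5% at E12.5. Ddx4 began higher, at 6.43% in E7.25 epiblast, was at 0.358% at E9.5, and reached 2.41%, 8.39% and 37.8% at E10.5, E11.5 and E12.5. Dmrt1 reached 0.661%, 6.95% and 14.8% at these ages. So at E12.5 Dazl and Ddx4 stood at a like share of their E15.5 level, with Dmrt1 at a smaller one. This comparison of shares is a description, and its difference was not tested.

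The ratio of Dazl to Ddx4, per library and on the RPKM scale, lay between 0 and 0.154 in epiblast. It was 0.126 and 1.08 at E9.5 and 0.796 and 1.63 at E10.5. From E11.5 on it lay between 2.62 and 3.78 in all 8 libraries, while Dazl itself ran from 87.2 to 1069 RPKM. The ratio of Dazl to Dmrt1 did not settle in this way: it was 16.2 and 23.2 at E11.5, 41.1 and 30.8 at E12.5, and between 10.6 and 16.2 at E15.5.

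**Figure D3:**
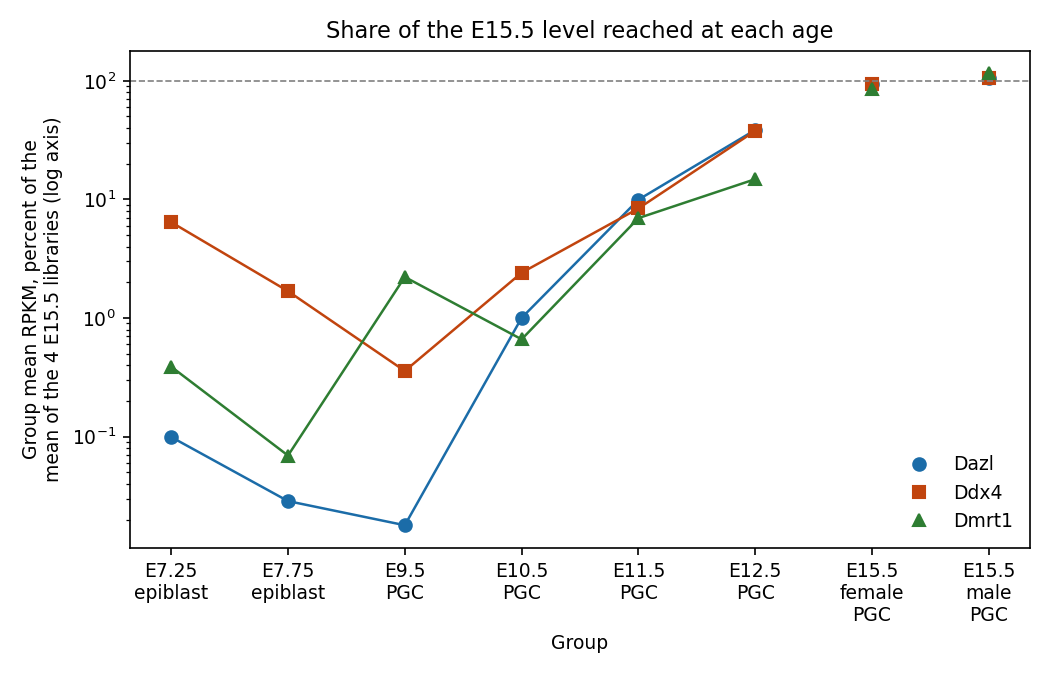
Mean RPKM of each group as a percentage of the mean of the 4 E15.5 libraries (dashed line, 100%), on a log axis, for Dazl, Ddx4 and Dmrt1; lines join the groups up to E12.5. Dazl and Ddx4 come together from E11.5 on, at 38.5% and 37.8% at E12.5, where Dmrt1 is at 14.8%.

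Across the 18 libraries Dazl and Ddx4 correlated at r = 0.896 and, over the 12 PGC libraries, at 0.984 (Pearson, log2(RPKM + 1)). Dmrt1 correlated with Dazl at 0.919 and with Ddx4 at 0.837 over the 18 libraries, and at 0.867 and 0.872 over the 12. These values describe libraries that share their age, and they carry no p. Among 9238 candidate genes, the 5 most like Dazl were Stk31 (0.986), Mov10l1 (0.986), Rhox13 (0.985), LOC100302465 (0.982) and Trim52 (0.978). Stk31 encodes a kinase-like Tudor protein of germ cells and Mov10l1 an RNA helicase needed for piRNA production. The Stk31 means were 0.0896 RPKM at E9.5, 5.65 at E10.5, 40.9 at E11.5 and 135 at E12.5, then 286 RPKM in E15.5 female and 231 RPKM in E15.5 male PGC. Those of Dazl were 0.177, 9.93, 98.5 and 381 RPKM at the same 4 ages.

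The 5 genes most like Ddx4 were Tex15 (0.956), Tuba3a (0.955), Mina (0.952), Rnf17 (0.942) and Tuba3b (0.939). Tex15 is needed for meiotic recombination in mouse, and Rnf17 encodes a Tudor protein of germ granules. Like Ddx4, Tex15 had a lower level at E9.5 than in E7.25 epiblast, which its choice by correlation with Ddx4 favours. Its mean was 1.47 RPKM at E9.5 and 6.44 RPKM in E7.25 epiblast. Tuba3a and Tuba3b are near-identical tubulin genes, whose reads may be shared. The 5 most like Dmrt1 were Stag3 (0.972), Timm8a2 (0.966), AABR07002250.2 (0.966), Gtsf1 (0.963) and Mov10l1 (0.962). Stag3 encodes a meiotic cohesin subunit and Gtsf1 a small protein of the piRNA pathway. Stag3 was listed at a mean of 0 at E10.5 and had 2.89 RPKM at E11.5 and 10.03 RPKM at E12.5. It then had 49.7 RPKM in E15.5 female and 38.5 RPKM in E15.5 male PGC. With likeness measured over the 12 PGC libraries instead, 2 of the 5 genes stayed the same for Dazl, 1 for Ddx4 and 1 for Dmrt1. Over the 8 group means it was 3, 2 and 2.

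**Figure D4:**
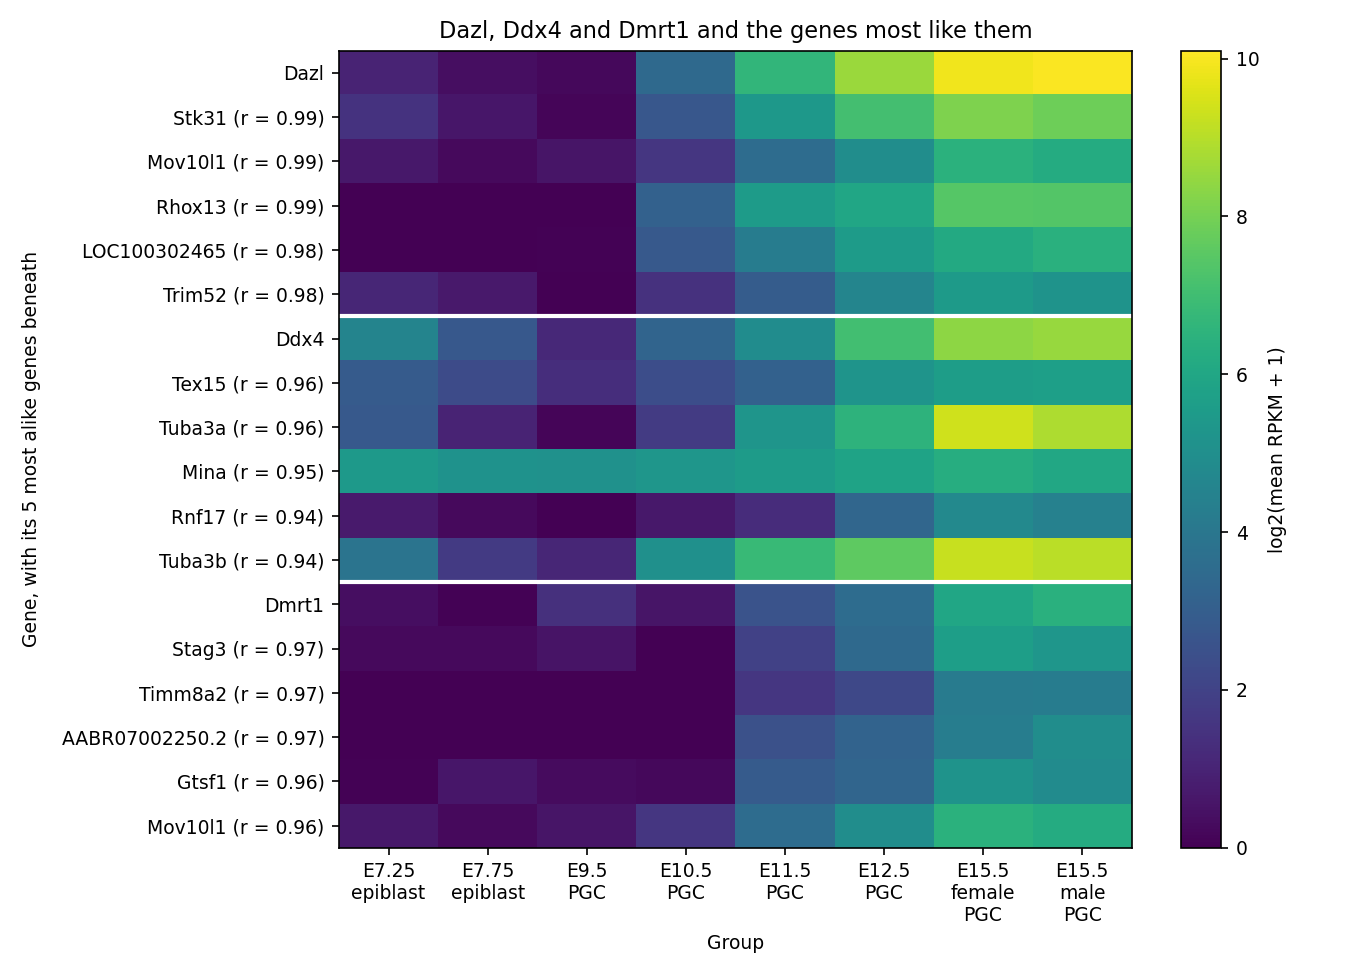
Mean level, as log2(mean RPKM + 1) by the colour scale, of Dazl, Ddx4 and Dmrt1 and of the 5 genes most like each, by group; r is Pearson's correlation over the 18 libraries. The genes like Dazl are low until E9.5, those like Dmrt1 until E10.5, and all 5 like Ddx4 have a higher mean in E7.25 epiblast than at E9.5. As each gene was picked by r, a course like that of its member follows from the choice.

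Genes of the pathways in which the 3 act were counted from lists. Of 18 tested germ granule and piRNA genes, the setting of Ddx4, 14 rose and 1 fell in PGC against epiblast, where 58.5% of all tested genes passed, with a median difference of 1.91 against 0.09 for all tested genes. At the step to E10.5, 5 rose and 1 fell, a share near the 29.9% of all tested genes (median 0.06, all genes -0.16), and Fkbp6 (3.14 ± 0.59) and Piwil2 (3.05 ± 0.38) had the largest rises. At the step to E11.5, 6 rose and 0 fell against 7.19% of all tested genes (median 0.93, all genes 0.03), with the largest rise in Mael (2.99 ± 0.39). At the step to E12.5, 4 rose and 0 fell against 7.21% (median 0.75, all genes 0.08). In E15.5 PGC against E12.5, 9 rose in female PGC, against 18.4% of all tested genes, and 5 in male PGC, against 8.73%, with 0 lower in either. Between the sexes their median difference was 0.24, against 0.00 for all tested genes and -0.16 for Ddx4.

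The DEAD-box relatives of Ddx4 passed in both directions. Of 13 tested, 3 rose and 6 fell in PGC against epiblast (median -0.01, all genes 0.09), a share near the 58.5% of all tested genes. Between E9.5 and E10.5, 0 rose, 8 fell and 5 did not pass, against 29.9% of all tested genes (median -0.75, all genes -0.16). Ddx3y, among the 13, is a symbol held by 2 lines and uncertain. It averaged 16.3 RPKM in E15.5 female and 6.52 RPKM in E15.5 male PGC. Ddx43, another germ cell helicase, was at most 4.55 RPKM in every library up to E12.5. It had 98.3 and 103.7 RPKM in E15.5 female PGC and 57.0 and 58.3 RPKM in E15.5 male PGC, against 2.31 and 4.55 RPKM at E12.5 (4.57 ± 0.32 and 3.77 ± 0.32; limma adjusted p = 5.81e-07 and 6.12e-06).

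For Dazl, 9 mRNAs reported as DAZL targets in mouse were followed. In PGC against epiblast 7 were higher and 1, Sall4, lower, against 58.5% of all tested genes (median 1.39, all genes 0.09). Of the 9, 4 rose and 5 did not pass at the step to E10.5, against 29.9% of all tested genes (median 0.06, all genes -0.16). Only 2 rose and 7 did not pass at the step to E11.5, against 7.19% (median 0.26, all genes 0.03). Tex19.1, which restrains transposons, rose at the same steps as Dazl to E10.5 (3.01 ± 0.63) and E11.5 (2.82 ± 0.63). Its means were 113 RPKM at E11.5 and 15.9 RPKM at E10.5. Sycp3, of the meiotic chromosome axis, rose at the step to E11.5 (2.21 ± 0.41) and at E15.5 in female (2.49 ± 0.41) and male PGC (1.78 ± 0.41). In E15.5 female PGC against E12.5, 2 of 9 rose and 1 fell, against 18.4% of all tested genes (median -0.33). In E15.5 male PGC 2 rose and 0 fell, against 8.73% (median -0.01). Of 18 tested RNA-binding regulators of the germ line other than Dazl, 7 were higher and 6 lower in PGC, against 58.5% of all tested genes, and 0 rose and 7 fell at the step to E10.5, against 29.9%.

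For Dmrt1, 5 of 9 genes reported under DMRT1 control in mouse gonads could be tested. In E15.5 female PGC against E12.5, 1 rose, 1 fell and 3 did not pass, where 18.4% of all tested genes passed. In E15.5 male PGC 1 rose and 4 did not pass, where 8.73% of all tested genes passed. Stra8, which DMRT1 activates in the fetal ovary and represses in the testis of mouse, was the one that rose in female PGC (6.27 ± 0.25), and Sox2 the one that fell (-1.14 ± 0.28). Sohlh1, a transcription factor of germ cells, rose in male PGC (2.67 ± 0.28), with 6.06 and 4.74 RPKM there and a listed 0 in both E12.5 libraries. Stra8 reached 1 RPKM in the E15.5 female libraries only, and so passed the filter on low values through the group where it was high.

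Of 8 other members of the DMRT family, 5 passed the filter, and 3 (Dmrta1, Dmrtb1 and Dmrtc2) were below 1 RPKM in every library. Dmrt2 (1.35 and 1.28 RPKM) and Dmrta2 (3.55 and 3.61 RPKM) reached 1 RPKM in E15.5 female PGC only, and Dmrt3 at E15.5 only, with 5.65 and 4.63 RPKM in female and 6.36 and 3.04 RPKM in male PGC. These 3 passed the filter through the groups where they were high, so no count of calls is given for the family.

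Of 19 tested meiotic entry and axis genes, 3 rose and 1 fell at the step to E10.5, a smaller share than the 29.9% of all tested genes. At the step to E11.5, 6 rose and 0 fell, against 7.19%. At that to E12.5, 1 rose and 0 fell, a share near the 7.21% of all tested genes. At E15.5, 11 rose and 0 fell in female PGC, where 18.4% of all tested genes passed in either direction. In male PGC 7 rose and 0 fell, against 8.73%. Stra8 is among the 11, though it passed the filter on low values only through the E15.5 female libraries. Between the sexes 3 were higher and 0 lower in female PGC, against 9.68% of all tested genes (median 0.82, all genes 0.00). Rec8 was among the 3 (2.96 ± 0.64). Of 8 tested fetal male germ cell genes 3 were lower in E15.5 female than in male PGC and 0 higher, against 9.68% of all tested genes (median -1.27), with the largest differences in Lefty2 (-5.92 ± 0.76, a symbol held by 2 lines and uncertain) and Tdgf1 (-3.36 ± 0.73). Dazl, Ddx4 and Dmrt1 had differences between the sexes of -0.15, -0.16 and -0.42.

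Of 17 tested repressors of germ line genes, among them DNA methyltransferases and E2f6, 9 fell, 3 rose and 5 did not pass in PGC against epiblast, where 58.5% of all tested genes passed (median -0.36, all genes 0.09). Dnmt3b (-6.63 ± 0.20) and Dnmt3a (-4.79 ± 0.16) fell most. Both also fell in E9.5 PGC against E7.75 epiblast (-5.67 ± 0.37 and -4.55 ± 0.29). At the step to E10.5, 2 fell (E2f6 and Tfdp1), 1 rose (Ehmt2) and 14 did not pass, a smaller share than the 29.9% of all tested genes. Any relation of these genes to Dazl, Ddx4 or Dmrt1 was not tested.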

How the data were processed

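Total RNA was extracted with a PicoPure kit and libraries were made with a SMART-Seq v4 kit, per the labels. The authors deposited RPKM values in 1 table. The build rn6 and the tools Cufflinks 2.2.1, TopHat2 2.1.0, cutadapt 1.14 and bcl2fastq 2.18.0.12 come from the submitters' processing notes. Not given in the sources used here: annotation, strand use and the handling of multi-mapping reads, so values of near-identical genes are uncertain. Columns of other samples numbered 0.

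Groups were taken from the sample titles. Genes with at least 1 RPKM in at least 2 libraries were tested on log2(RPKM + 1), a scale that makes changes of low genes smaller. A model of 8 groups (10 residual degrees of freedom) was fitted (R 4.3.3, limma 3.58.1) with a variance trend and Benjamini-Hochberg adjustment over 14865 genes within each comparison, at a threshold of 0.05. The SE pools the spread of all groups. The fit was tested on simulated data. Folds are ratios of mean RPKM. Relative depth came from the most common ratio of values under 50 RPKM to those of the E7.75 female library.

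Genes most alike are the 5 with the highest Pearson correlation, among tested genes with a group mean of at least 10 RPKM. From each list the largest rises and falls are named. Shares of all tested genes count rises and falls together. Symbols held by several lines were read from the line with the highest mean. Promoter letters come from RefSeq, build GRCr8; 0 identifiers of the table matched that reference, so symbols were used. Alternatives were another pseudocount, filters, scalings, spread estimates, a replicate block and leaving out each library. The members and lists were chosen with earlier results of these data known. Python 3.11.15 with matplotlib 3.10.9 drew the figures.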

Additional observations from a re-analysis of the deposited data

How the results depend on the processing

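No called difference of Dazl, Ddx4 or Dmrt1 changed direction under the alternatives run. Of their values under the alternatives 661 kept their side of the threshold, 55 lost it and 16 passed it (limma, adjusted p of 0.05). With a pseudocount of 0.1 the calls lost were those of Dazl (3.34) and Dmrt1 (3.98) at the step to E11.5, Dazl (1.96) and Ddx4 (2.202) at that to E12.5, and Dazl and Dmrt1 at E15.5 in female (1.30 and 2.51) and male PGC (1.45 and 2.93). Without a filter on low values Dmrt1 at the step to E11.5 (2.11) and Dazl in E15.5 female (1.30) and male PGC (1.45) lost their calls, as did the 2 Dazl values without a variance trend. Quantile normalization brought a call of Ddx4 in E15.5 female PGC (1.52), and rescaling without the most abundant genes one of Ddx4 at the step to E11.5 (1.82). With library weights Ddx4 passed between the epiblast days (-1.86) and in E15.5 male PGC (1.47).

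With only the compared groups in the fit, lost calls were Ddx4 at E9.5 (-1.80), Dazl (3.18) and Ddx4 (2.31) at E10.5, Dazl (3.22) and Dmrt1 (2.11) at E11.5, Dazl (1.95) and Ddx4 (2.17) at E12.5 and Dmrt1 in E15.5 male PGC (2.83), while Ddx4 passed in E15.5 female (1.31) and male PGC (1.47). These fits hold fewer libraries. They called 9 genes between the epiblast days, 2204 at E9.5, 56 at E11.5, and 1006 and 333 in E15.5 female and male PGC. They called 0 by limma at E10.5, at E12.5 and between the sexes, where 3544, 3707 and 3183 genes had an unadjusted p under 0.05. Library weights gave 146 calls between the epiblast days, 2228 at E10.5, 502 at E11.5, 1999 at E12.5 and 2188 in E15.5 male PGC. For Ddx4 in all PGC against epiblast, PGC to E12.5 alone gave 0.44 and a fit of 2 groups 1.92. The cause was not tested.

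Replicate numbers are shared between PGC groups, and deviations of same-numbered libraries correlated at -0.133 to 0.0581 over 15 pairs of groups. Whether same-numbered libraries also share a preparation is not stated in the labels and was not tested. With a replicate block Dazl lost its calls in E15.5 female (1.30, limma adjusted p = 0.0513) and male PGC (1.45, limma adjusted p = 0.0542), and no other call of the 3 genes changed.

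Leaving out 1 library gave -2.14 to -1.46 for Ddx4 between the epiblast days, -2.67 to -0.93 for Ddx4 and -0.023 to 2.0 for Dmrt1 at E9.5, and -1.58 to 0.44 for Dmrt1 at E10.5. At E11.5 it gave 1.35 to 1.96 for Ddx4 (1.66 without E7.25 male replicate 1) and 1.62 to 2.60 for Dmrt1. At E12.5 it gave 1.79 to 2.12 for Dazl and 1.86 to 2.47 for Ddx4. In E15.5 female PGC the ranges were 1.25 to 1.35 for Dazl, 1.25 to 1.38 for Ddx4 and 2.27 to 2.56 for Dmrt1, and in E15.5 male PGC 1.40 to 1.496, 1.40 to 1.54 and 2.54 to 3.12. Between the epiblast days 16 to 50 genes were called, with 17 without E12.5 replicate 2, 18 without E7.75 male replicate 1, 23 without male replicate 2 of either day and 46 without E9.5 replicate 1. Elsewhere genes called ranged over 353 to 1360 at E11.5, 251 to 1305 at E12.5, 1475 to 3033 and 525 to 1507 in E15.5 female and male PGC, and 672 to 1679 between the sexes. Depth limits the low values of E10.5 and E11.5 most.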
